A study of Mus musculus with 6 samples.

Results

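The envelope genes of the epidermal differentiation complex were followed in newborn mouse epidermis with and without Eed. The complex is a gene cluster on chromosome 3, and its members were taken by symbol: every Lce and Sprr gene, together with Lor, Ivl, Flg, Flg2, Hrnr, Rptn, Tchh and Tchhl1, without the S100 genes of the same cluster. The rule found 43 of the 24453 gene symbols in the deposited files, and Flg was not analysed here. RNA was measured in sorted back-skin cells of mice at postnatal day 0, in 3 control libraries and 3 libraries of Eed conditional knockout (cKO) mice, whose genotype label is Eed-/-. Cells were gated as EpCAM-positive, Sca1-positive and high in α6-integrin, a sort enriched for basal progenitors of the interfollicular epidermis, and 100-base single reads were taken from amplified RNA. No source used here gives the alleles of the controls, the Cre driver or the number of animals behind a library. P-values therefore measure the spread between libraries, which may be technical.

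The cornified envelope is the protein shell that replaces the plasma membrane of keratinocytes as they leave the granular layer. Involucrin is laid down first, and loricrin and the small proline-rich (SPRR) and late cornified envelope (LCE) proteins are then cross-linked onto it by transglutaminases. The S100 fused-type proteins, which include filaggrin-2, hornerin, repetin and trichohyalin, join the envelope or the keratin matrix beneath it. Basal cells normally express little of any of them. EED is a core subunit of Polycomb repressive complex 2, which places a histone methyl mark on silenced genes.

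Total counts ran from 20998149 to 29998531 per library, and the 43 members held from 2100 to 6337 of them, or 0.00769% to 0.0231%. Eed had counts-per-million (CPM, normalised by the TMM method) values of 45.1, 41.1 and 53.1 in the controls (libraries 1 to 3) and of 37.0, 33.7 and 29.2 in the knockouts (Eed cKO 1 to 3). The groups did not overlap, but Eed was not called (log2 fold change -0.48 ± 0.19 SE, adjusted p 0.252 with edgeR), and no source used here names the deleted exons. Basal markers dominated all libraries: Krt5 stood at 22623 ± 3399 CPM in control and 22537 ± 3674 CPM in Eed cKO, and Krt14 at 5461 ± 732 and 4930 ± 1161 CPM (SD, n = 3 each). Krt10, the first keratin of the spinous layer, was at 405 CPM per kilobase of transcript in control, against 18.2 for Sprr1a, 9.89 for Lce1b, 7.68 for Lce1c and 6.90 for Lor, the 4 most abundant members on the same scale of level per length.

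Two-sided tests with edgeR's quasi-likelihood method, adjusted over all 14700 genes tested, called 2 envelope genes higher in the knockout, Sprr1a and Hrnr, with the threshold set at an adjusted p of 0.05. Of the 43 members 25 passed the filter on low counts and could be tested, so 8% of those tested rose, beside 3.39% of all genes. No member was called lower, beside 0.816% of all genes, and at an unadjusted p under 0.05 the number of lower members was also 0, as it was among the calls of DESeq2 and limma-voom. Among the tested members 24 of 25 had a positive log2 fold change, against 48.7% of all genes, and their median was 0.92 against -0.01 over all genes. The filter admits a gene that is high in 1 group only. Of the 25, 17 reached the filter level (0.379 CPM) in every control library, and these had a median of 0.70. Ranges of the groups were apart upward for 8 of the 25 and downward for 0, while among all genes tested 11% were apart upward and 9.22% downward. In bulk RNA a change in the share of differentiating cells and a change in RNA per cell cannot be told apart.

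**Figure D1:**
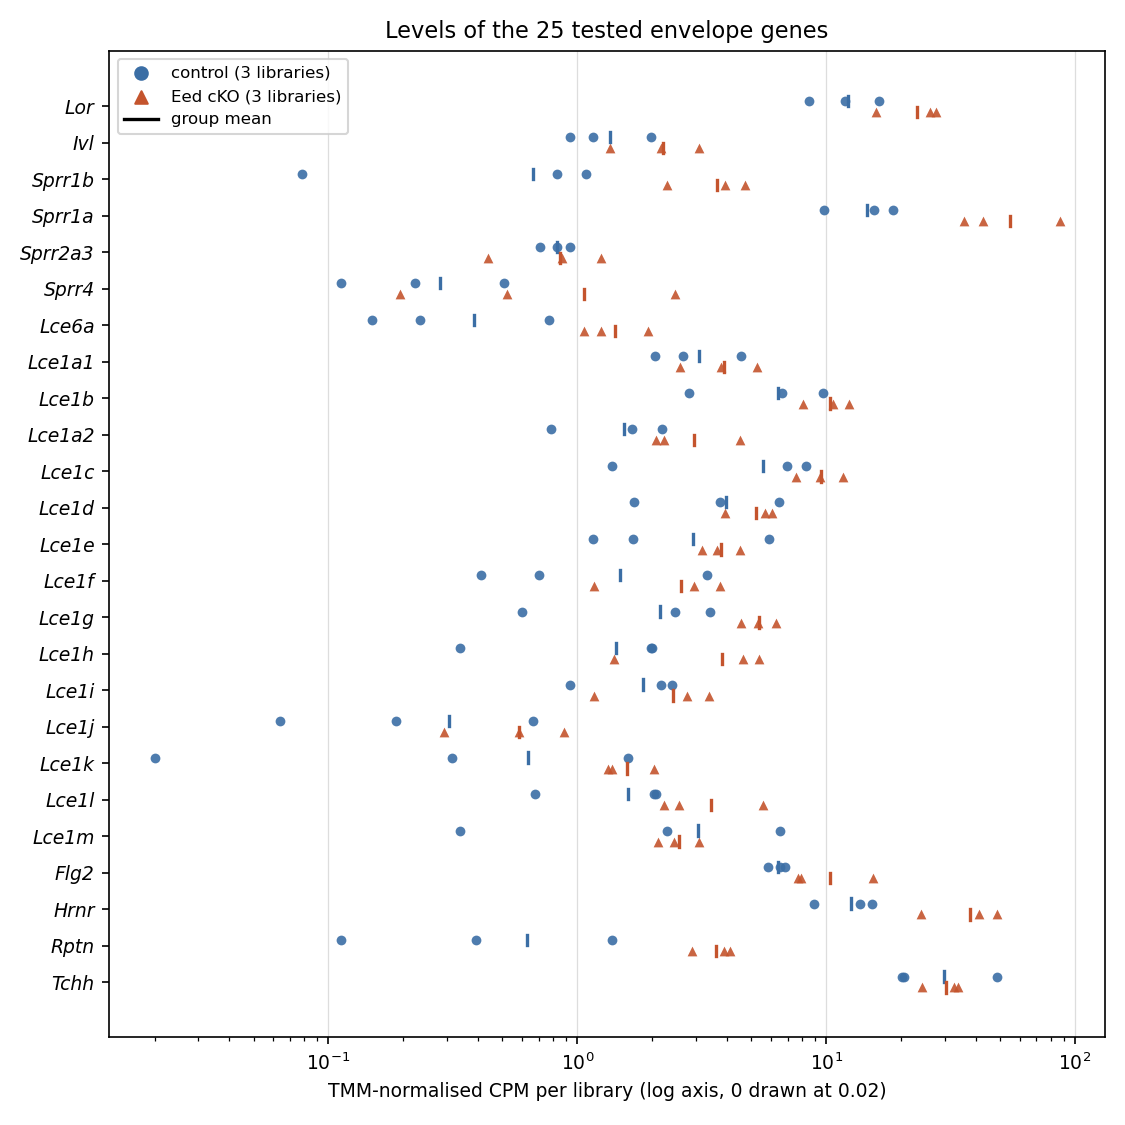
Level of each tested envelope gene in each library, in TMM-normalised CPM on a log axis, with circles for control, triangles for Eed cKO and a short bar at each group mean (a value of 0 is drawn at 0.02). Sprr1a and Hrnr stand apart between the groups, while the groups overlap for 12 of the 14 Lce1 genes, in most of them through control 2.

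**Figure D2:**
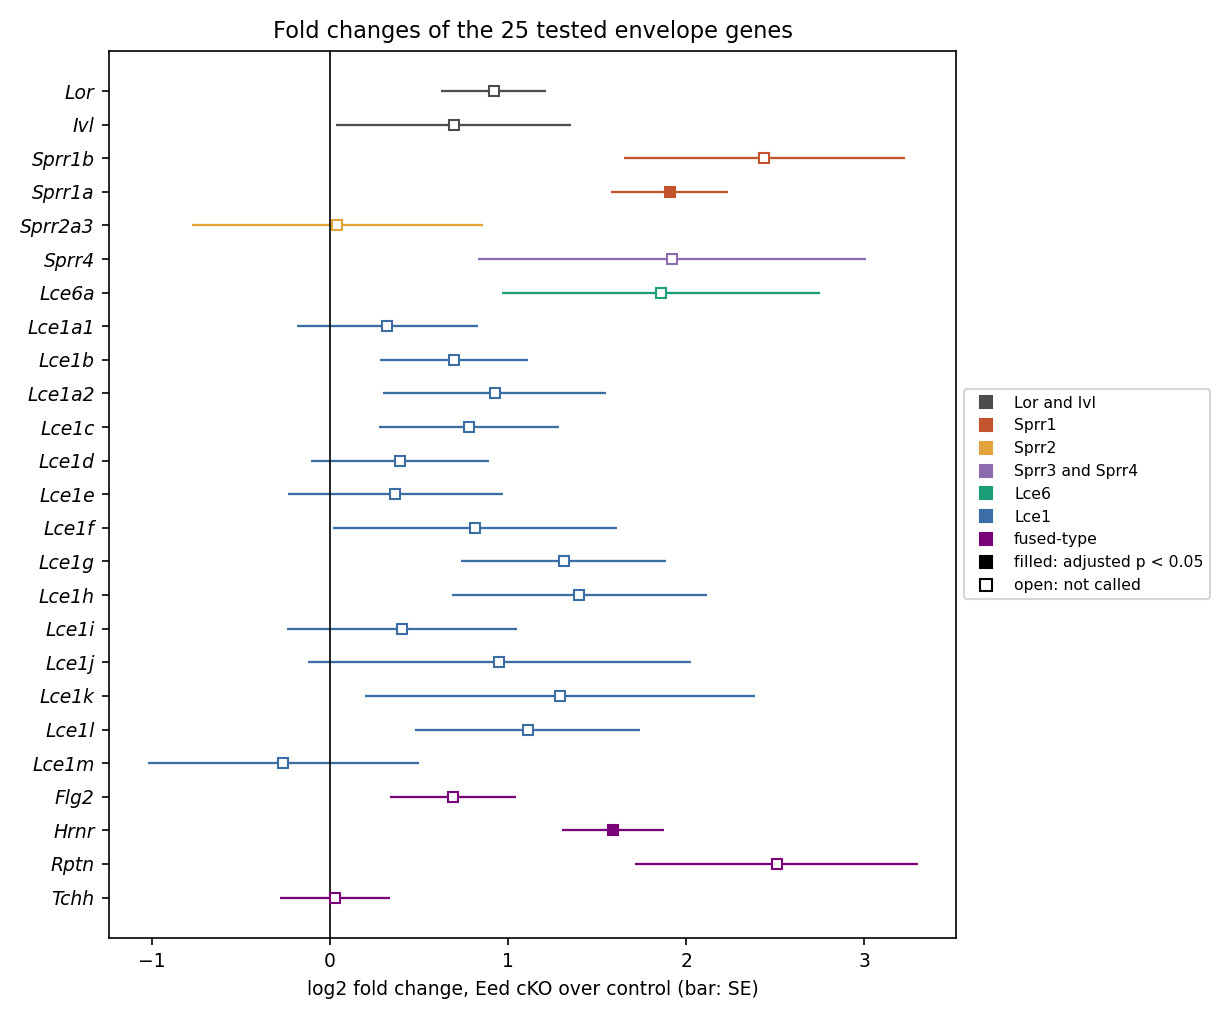
Log2 fold change of Eed cKO over control for the 25 tested genes, with the standard error as a bar and colour by family; filled squares passed an adjusted p of 0.05 in edgeR. Only Sprr1a and Hrnr are filled, and Lce1m alone lies below 0.

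Promoter sequences are shown for the 2 genes that rose (Sprr1a and Hrnr), for the relatives and neighbours with the next smallest p-values (Sprr1b, Rptn and Lor), and for a pair of Lce1 genes as a contrast. Each line gives the 150 bases before the RefSeq start site, read 5′ to 3′ on the gene's own strand (build GRCm38.p6). Capitals mark matches to any of 5 motifs searched on both strands: the AP-1 sequence is TGANTCA, the TATA box is given as TATAAA, the Grainyhead sequence is AACCNGTT, that of KLF factors is CCACCC, and that of C/EBP factors is TTGCNNAA.
Sprr1a, chr3:92485882-92486031, minus strand: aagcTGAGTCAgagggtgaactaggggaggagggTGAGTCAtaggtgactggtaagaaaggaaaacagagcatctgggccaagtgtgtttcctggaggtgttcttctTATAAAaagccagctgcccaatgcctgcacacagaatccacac
Sprr1b, chr3:92438780-92438929, minus strand: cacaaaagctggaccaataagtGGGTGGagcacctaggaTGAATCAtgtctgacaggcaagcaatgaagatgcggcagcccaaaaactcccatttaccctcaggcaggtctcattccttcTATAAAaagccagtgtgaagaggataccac
Rptn, chr3:93393549-93393698, plus strand: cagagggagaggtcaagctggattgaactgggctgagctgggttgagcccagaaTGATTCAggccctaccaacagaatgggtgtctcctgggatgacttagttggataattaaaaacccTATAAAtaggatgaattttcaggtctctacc
Lor, chr3:92083143-92083292, minus strand: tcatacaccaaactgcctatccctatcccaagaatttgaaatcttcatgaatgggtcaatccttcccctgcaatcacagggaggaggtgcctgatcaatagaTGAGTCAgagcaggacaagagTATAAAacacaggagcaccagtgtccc
Hrnr, chr3:93319599-93319748, plus strand: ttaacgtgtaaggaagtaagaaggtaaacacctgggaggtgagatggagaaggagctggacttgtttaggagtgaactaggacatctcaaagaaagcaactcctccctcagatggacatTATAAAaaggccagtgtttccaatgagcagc
Lce1g, chr3:92752339-92752488, minus strand: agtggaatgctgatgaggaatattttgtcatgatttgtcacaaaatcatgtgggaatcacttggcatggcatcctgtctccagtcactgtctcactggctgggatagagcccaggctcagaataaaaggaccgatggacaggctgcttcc
Lce1c, chr3:92679097-92679246, plus strand: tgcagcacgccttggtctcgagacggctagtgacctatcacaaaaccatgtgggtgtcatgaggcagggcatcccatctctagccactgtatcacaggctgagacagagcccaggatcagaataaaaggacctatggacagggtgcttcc

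RefSeq held an entry for 40 of the 43 members, and over the 250 bases before the start the AP-1 sequence was found in 9 of 13 Sprr promoters and in 0 of 13 Lce1 and 0 of 6 Lce3 promoters, against 6.7% of all 32851 promoter entries. Apart from Sprr1a and Sprr1b, the Sprr matches were all in Sprr2 genes that were not tested. The other members with a match were Lor, Ivl, Flg2, Rptn and Tchhl1, so the called Hrnr had none. Sprr1a held 2 AP-1 matches, beginning 146 and 116 bases before the start. TATAAA was in 10 of 13 Sprr promoters, 2 of 13 Lce1 promoters and 1 of 6 Lce3 promoters, against 12.4% of all entries. The KLF sequence was in 8 of the 40 members, namely 5 Sprr promoters, Lce1k, Ivl and Flg2 (28.1% of all entries), the Grainyhead sequence in Rptn alone among the 40 (1.8%), and the C/EBP sequence in Sprr2i, Lce3f, Flg2 and Hrnr (9.6%). Sprr1a and Sprr1b matched each other at 26.7% of the 150 positions without gaps, and the median over all 78 pairs of Lce1 promoters was 30.7%. The Lce1g and Lce1c pair printed above was at 70.7%, above that median. TATAAA began 43 bases before the start in Sprr1a and 30 in Sprr1b, and such a shift lowers a match without gaps. Low values therefore do not show that promoters are unlike. A further string, AATAAAAGG, was chosen after these promoters were seen. It lay 30 bases before the start in 7 of 13 Lce1 promoters, and was found in 1 of the 27 other members (Sprr4) and in 0.46% of all entries. These matches are letters in a window, and the libraries did not measure binding.

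**Figure D3:**
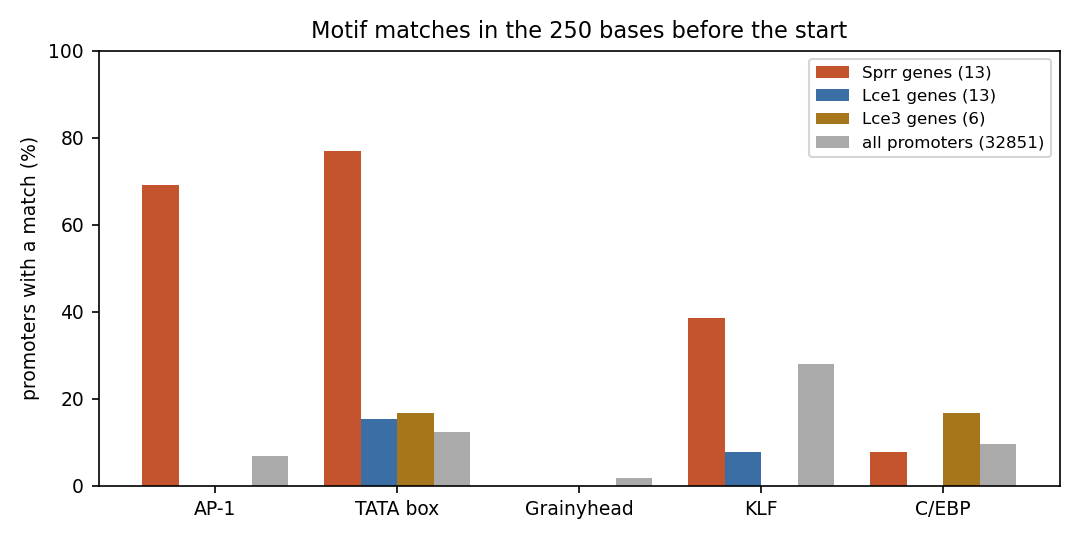
Percent of promoters with at least 1 match to each motif in the 250 bases before the start, for 13 Sprr, 13 Lce1, 6 Lce3 and all 32851 promoter entries. AP-1 and TATA box matches are common in the Sprr bars, and the AP-1 bars of Lce1 and Lce3 are at 0.

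Sprr1a, which encodes a proline-rich cross-bridging precursor that is also induced by epidermal stress, rose with the smallest p-value of any member. Its controls held 15.5, 18.6 and 9.84 CPM, and its Eed cKO libraries 86.7, 35.7 and 42.6 CPM, each in the order of library 1 to 3 that is kept throughout. Every Eed cKO library lay above every control library, and Eed cKO 1 was far above the other two. Control averaged 14.7 ± 4.44 and Eed cKO 55.0 ± 27.7 CPM (SD, n = 3 each), a log2 fold change of 1.91 ± 0.33 SE (adjusted p 0.00379 with edgeR). Without Eed cKO 1 the log2 fold change was 1.41 and the call held (adjusted p 0.00991 with edgeR). S100a6, a calcium-binding gene of the same complex, was also highest in Eed cKO 1, at 167 CPM against 106 and 71.6 in the other two Eed cKO libraries. Sprr1b, the close relative of Sprr1a, was at 1.08, 0.831 and 0.0781 CPM in control and at 4.70, 2.29 and 3.92 CPM in Eed cKO. Its groups were also apart and its log2 fold change was larger (2.44 ± 0.79 SE), but edgeR did not call it (adjusted p 0.117), whereas DESeq2 did (adjusted p 0.0170). Members under 5 CPM that are named singly, Sprr1b among them, were picked with their values in view.

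The other SPRR genes were scarce. Sprr2a3 was the single tested gene of the 11 Sprr2 rows, at 0.826 ± 0.113 CPM in control and 0.851 ± 0.404 CPM in Eed cKO (log2 fold change 0.04). Sprr2a1, Sprr2b, Sprr2e, Sprr2f and Sprr2k had no count in any library, and neither did Sprr3, an esophageal and oral member. Sprr2d had 8 counts over the control group and 38 over the Eed cKO group, 27 of them in Eed cKO 2, and Sprr2h had 17 and 2, all 17 in control 2. Neither was tested. Sprr4 had 0.281 ± 0.204 CPM in control and 1.06 ± 1.23 CPM in Eed cKO (log2 fold change 1.92 ± 1.09 SE, adjusted p 0.457 with edgeR), with 2.48 CPM in Eed cKO 1 and at most 0.522 CPM in the other two. Its log2 fold change was 0.36 without Eed cKO 1. Sprr2a1 has only 7.5% of its 100-base windows unique among annotated transcripts and Sprr2a3 63.8%, so reads of these copies can be lost or split. In 37 of the 43 members at least 95% of windows were unique. A window repeated inside a gene still counts as unique. Hrnr has 4958 distinct windows in a transcript of 11187 bases, so reads of its repeats can be lost too.

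Loricrin and involucrin, the classical precursors, did not pass. Lor was at 8.57, 16.3 and 12.0 CPM in control and at 15.8, 27.7 and 26.2 CPM in Eed cKO. Eed cKO 1 fell just under the highest control, so the groups overlapped by that library alone. The log2 fold change was 0.92 ± 0.29 SE (adjusted p 0.115 with edgeR), and Lor was called without Eed cKO 1 (adjusted p 0.0489 with edgeR) and by DESeq2 (adjusted p 0.0485). Ivl, the scaffold gene, had 1.36 ± 0.550 and 2.21 ± 0.872 CPM, with overlapping groups (log2 fold change 0.69 ± 0.66 SE, adjusted p 0.727 with edgeR).

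Among the S100 fused-type genes, Hrnr rose and Tchh did not. Hrnr encodes hornerin, a large histidine-rich repeat protein of the granular layer and envelope. It was at 8.90, 15.2 and 13.7 CPM in control and at 24.1, 41.2 and 48.5 CPM in the Eed cKO libraries. The groups did not overlap. Control averaged 12.6 ± 3.30 and Eed cKO 37.9 ± 12.5 CPM (SD, n = 3 each; log2 fold change 1.59 ± 0.29 SE, adjusted p 0.00529 with edgeR). In the 6 fits that leave out 1 library its adjusted p stayed under 0.05, the highest being 0.0452 without Eed cKO 3.

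Rptn, encoding repetin, had the largest log2 fold change among the 25 tested members, at a far lower level. It was at 0.112, 1.37 and 0.391 CPM in control and at 2.88, 4.09 and 3.87 CPM in Eed cKO. The groups were apart, yet the log2 fold change of 2.51 ± 0.79 SE was not called by edgeR (adjusted p 0.106). Control 2 held 43 of its 56 control counts, and without that library the log2 fold change was 3.84 (adjusted p 0.0232 with edgeR). Flg2, which encodes filaggrin-2, was even across controls at 6.81, 5.85 and 6.52 CPM. In Eed cKO it was at 7.91, 15.4 and 7.70 CPM, so Eed cKO 2 carried most of the difference. Its groups were apart but the log2 fold change of 0.69 ± 0.35 SE was not called (adjusted p 0.396 with edgeR), and it was 0.30 without Eed cKO 2.

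Tchh encodes trichohyalin, a protein of the inner root sheath of the hair follicle. It was at 20.6, 20.2 and 48.6 CPM in control and at 33.8, 32.7 and 24.3 CPM in Eed cKO. Control 3 was the highest of all 6 libraries and the groups overlapped. The log2 fold change was 0.03 ± 0.31 SE (95% interval -0.64 to 0.69, adjusted p 0.987 with edgeR), and it was 0.57 without control 3 and -0.18 without control 1 or control 2. The inner root sheath keratin Krt71 was also highest in control 3, at 13.4 CPM against 3.59 and 6.77 CPM in controls 1 and 2, and Krt71 fell from 7.93 ± 5.02 to 1.54 ± 0.974 CPM (log2 fold change -2.36, adjusted p 0.0495 with edgeR). The Krt71 call was lost in limma-voom (adjusted p 0.0943), with upper-quartile scaling, with a filter of 1 CPM and in the 4 fits that leave out control 2, control 3, Eed cKO 2 or Eed cKO 3 (adjusted p up to 0.284 with edgeR, without control 3). Of the other sheath keratins on the list, Krt27 was also highest in control 3 (2.54, 1.34 and 3.55 CPM in control). Krt25 was highest in control 2 (2.17, 5.69 and 5.04 CPM) and Krt28 in control 1 (1.76, 0.863 and 0.859 CPM). Krt71 and Krt27 thus shared their highest control library with Tchh, while Krt25 and Krt28 did not. Tchhl1 had 2 counts in control and 5 in Eed cKO and was not tested.

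The 14 Lce1 genes all passed the filter and none was called by edgeR. Lce1g alone had an unadjusted p under 0.05, and neither DESeq2 nor limma-voom called any Lce1 gene. Log2 fold changes ran from -0.26 (Lce1m) to 1.40 (Lce1h) with a median of 0.80, and 13 were positive. Lce1b, the most abundant on the CPM scale, was at 2.81, 9.71 and 6.68 CPM in control and at 8.09, 10.7 and 12.4 CPM in Eed cKO. Lce1c was at 1.38, 8.31 and 6.99 CPM in control and at 7.54, 11.7 and 9.44 CPM in Eed cKO. In both genes control 1 lay well below the rest, and control 2 reached into the Eed cKO range. Their log2 fold changes were 0.70 ± 0.41 and 0.78 ± 0.51 SE (adjusted p-values 0.494 and 0.545 with edgeR).

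The spread among controls was common to the Lce1 family. Control 1 was the lowest control for 12 of the 14 genes and control 2 the highest for 10. Lce1d shows it, at 1.68, 6.49 and 3.75 CPM in control against 3.93, 5.70 and 6.05 CPM in Eed cKO (log2 fold change 0.39 ± 0.50 SE). Lce1g was the named Lce1 gene with groups apart, at 0.599, 3.42 and 2.46 CPM in control and 6.27, 4.54 and 5.32 CPM in Eed cKO (log2 fold change 1.31 ± 0.58 SE, adjusted p 0.297 with edgeR). Lce1l was apart too, by a small margin, with controls up to 2.08 CPM and Eed cKO libraries from 2.22 CPM. Summed over the family, control libraries held 14.8, 57.8 and 35.3 CPM and Eed cKO libraries 47.7, 61.8 and 65.1 CPM. Control 2 exceeded Eed cKO 1 in this sum, so the groups overlapped. Kprp and Crct1, envelope-associated genes of the complex outside the rule, had the same order among controls, at 24.9, 62.7 and 43.9 CPM and at 1.20, 7.16 and 2.77 CPM. They were chosen after their values were seen.

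Lce1m, the negative Lce1 gene, lies apart from the other Lce1 genes, between Lce3f and Flg2. It was at 0.337, 6.52 and 2.30 CPM in control and at 2.11, 2.45 and 3.10 CPM in Eed cKO. Its sign rested on control 2: the log2 fold change of -0.26 ± 0.76 SE was not called (adjusted p 0.935 with edgeR) and was 0.96 without that library and 0.43 in limma-voom. Lce6a, on the other side of the Lce1 block, was at 0.150, 0.767 and 0.234 CPM in control and 1.93, 1.24 and 1.06 CPM in Eed cKO, with groups apart but no call (log2 fold change 1.86 ± 0.89 SE, adjusted p 0.356 with edgeR).

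**Figure D4:**
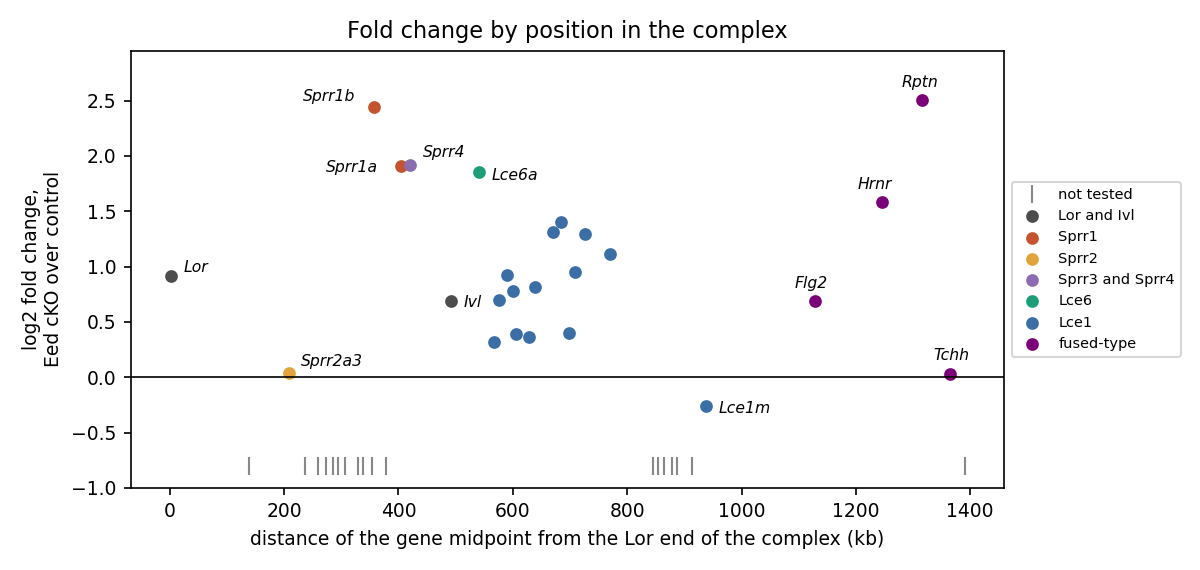
Log2 fold change of each tested member against the distance of its midpoint from the Lor end of the members, in kilobases, with grey ticks for the 18 members that were not tested. Most untested genes lie in the Sprr2 and Lce3 stretches, and the Lce1 block shows fold changes of both small and moderate size side by side.

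The 43 members span 1391.7 kb on chromosome 3, from Lor (start 92080271) to Tchhl1 (end 93471980) on GRCm38. The untested members lay mainly in the Sprr2 and Lce3 stretches. All 6 Lce3 genes, which in skin are known for induction by barrier injury, were below the filter. Lce3a and Lce3d had no count in any library. Lce3c had no control count and 14, 0 and 6 counts in Eed cKO libraries 1, 2 and 3, at least 7.64-fold higher against a floor of 3 counts over the control group. Lce3e had 1 control count and 10, 4 and 13 counts in the knockouts, which is a CPM ratio of 30.9 (95% counting interval 5.10 to 1266). Lce3b had 2 counts, both in control 2, and Lce3f had 2, both in Eed cKO 2. These intervals and floors cover counting error only, and 4 Lce3 genes share sequence, with 57.0% to 75.9% of their 100-base windows unique. Reads can therefore move between Lce3c, Lce3d, Lce3e and Lce3f.

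Members were also set beside Krt1 and Krt10, keratins of the layer in which differentiation begins. Krt10 was at 841, 754 and 946 CPM in control and at 1551, 2428 and 2075 CPM in Eed cKO, and rose (log2 fold change 1.25 ± 0.19 SE, adjusted p 0.00126 with edgeR). Krt1 had overlapping groups and was not called (log2 fold change 0.85 ± 0.24 SE, adjusted p 0.0711 with edgeR). It was called by DESeq2 (adjusted p 0.0120), without a filter on low counts and without Eed cKO 1 (adjusted p 0.0105 with edgeR). Summed over all members but Tchh, control libraries held 58.0, 121 and 80.6 CPM, and Eed cKO libraries 197, 196 and 204 CPM. With Tchh added they held 78.6, 141 and 129 CPM and 231, 229 and 228 CPM. Both sums include the called Sprr1a and Hrnr, at 86.7 and 24.1 CPM in Eed cKO 1 and at 18.6 and 15.2 CPM in control 2. With these 2 genes taken out, control 2 lay just above Eed cKO 1 in the sum without Tchh, so the groups overlapped. In the sum with Tchh they stayed apart. Per 1000 CPM of Krt1 and Krt10 the sums of all members but Tchh were 23.2, 35.3 and 24.4 in control and 47.8, 29.3 and 27.9 in Eed cKO, and the groups overlapped. Relative to these keratins only Eed cKO 1 stood above the controls.

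The 2 genes that rose differed in this ratio. Hrnr was at 3.56, 4.46 and 4.14 per 1000 CPM of Krt1 and Krt10 in control and at 5.84, 6.17 and 6.65 in Eed cKO, so its groups stayed apart. Sprr1a and Sprr1b together were at 6.64, 5.69 and 3.0 in control and at 22.1, 5.69 and 6.39 in Eed cKO, so that only Eed cKO 1 lay above the controls. Lce1 genes were at 5.93, 16.9 and 10.7 in control and at 11.5, 9.25 and 8.93 in Eed cKO. The ratios are descriptions with 3 libraries a group, for which an exact permutation test, two-sided, cannot give a p below 0.1.

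**Figure D5:**
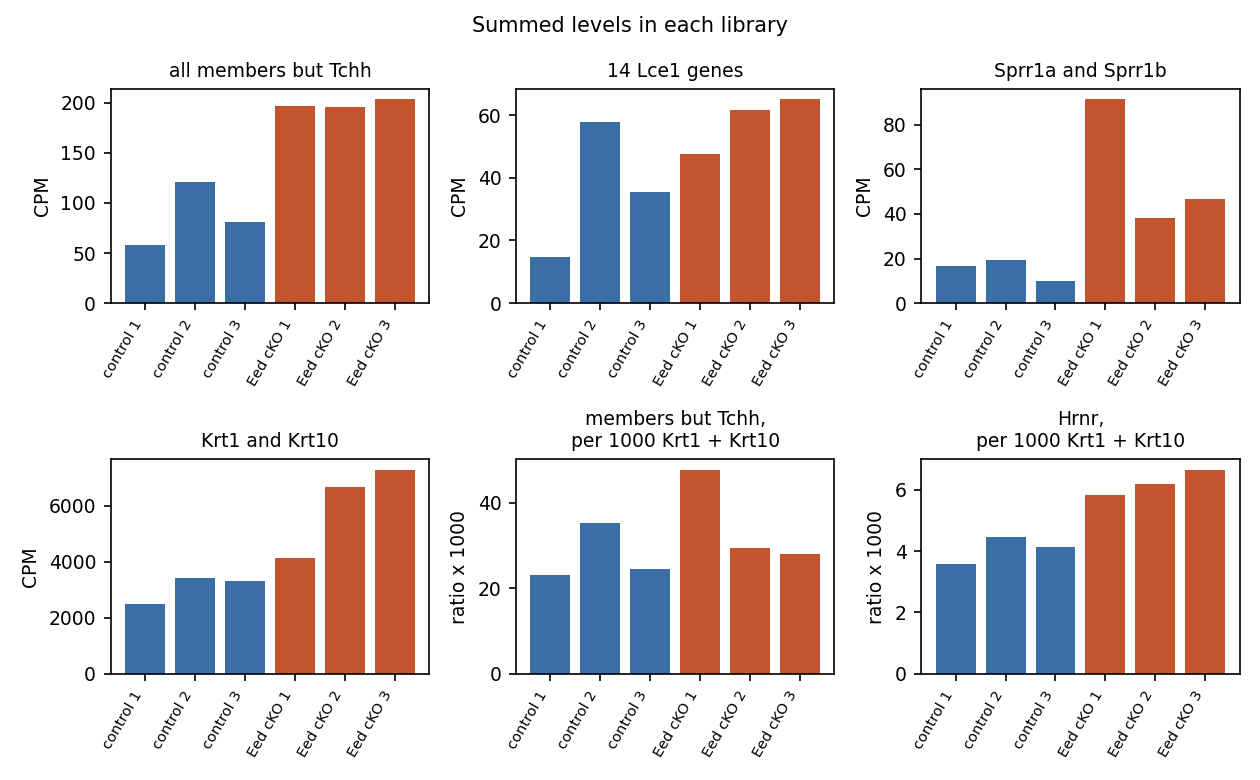
Summed level in each library of all members but Tchh, of the 14 Lce1 genes, of Sprr1a with Sprr1b, and of Krt1 with Krt10, in CPM, and the ratio of members and of Hrnr to 1000 CPM of Krt1 and Krt10. Eed cKO bars are above all control bars for the member sum (196 to 204 CPM), which includes the called Sprr1a and Hrnr. Without these 2 genes that sum overlaps between the groups. Eed cKO bars are also above for Sprr1a with Sprr1b, for Krt1 with Krt10 and for the Hrnr ratio. For Lce1 and for the member ratio they overlap with control.

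Genes that act with these members were read against the same shares of all genes, 3.39% called higher and 0.816% called lower. Of 16 tested genes elsewhere in the complex, S100a6 rose (48.3 ± 6.21 to 115 ± 48.4 CPM, log2 fold change 1.25, adjusted p 0.0120 with edgeR) and 15 did not pass. The S100a6 call was lost without control 3 (adjusted p 0.0663 with edgeR). Smcp (log2 fold change 2.93, adjusted p 0.0511 with edgeR) and Pglyrp4, a peptidoglycan recognition protein gene (-1.02, adjusted p 0.107 with edgeR), had groups apart without a call. DESeq2 called both (adjusted p 0.00219 and 0.0425), as did the fit without a filter, and limma-voom called neither. Of 20 scaffold and cross-linking genes, 1 rose, 1 fell and 18 did not pass. Both were transglutaminases. Tgm1, which cross-links envelope precursors at the membrane, rose from 8.58 ± 3.07 to 24.2 ± 3.95 CPM (log2 fold change 1.5, adjusted p 0.0110 with edgeR), a call lost without Eed cKO 2 (adjusted p 0.0558 with edgeR). Tgm5 fell from 27.3 ± 10.1 to 8.29 ± 0.791 CPM (log2 fold change -1.72, adjusted p 0.00276 with edgeR). Dsc1, a desmosomal cadherin gene of the upper layers, had 29.8 ± 11.7 and 61.5 ± 24.0 CPM without a call (adjusted p 0.0987 with edgeR). It was called by DESeq2 (adjusted p 0.0229), without a filter and without Eed cKO 1.

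Of 12 tested genes of filaggrin processing and desquamation, 2 rose and 10 did not pass. Spink5, a serine protease inhibitor gene, rose from 15.7 ± 2.81 to 41.1 ± 13.2 CPM (log2 fold change 1.39, adjusted p 0.00728 with edgeR), and the kallikrein gene Klk5 from 5.53 ± 2.76 to 16.6 ± 5.84 CPM (log2 fold change 1.58, adjusted p 0.0319 with edgeR). Klk5 did not pass when control 1, control 3 or either of Eed cKO 2 and Eed cKO 3 was left out (adjusted p up to 0.203 with edgeR). Klk7, another kallikrein gene, was not called (log2 fold change 1.19, adjusted p 0.0635 with edgeR), but it was by DESeq2 (adjusted p 0.0109), by limma-voom (adjusted p 0.0464), without a filter and without control 2. Of 13 tested barrier lipid genes, 3 rose and 10 did not pass. Elovl4, an elongase of very long fatty acids, rose from 18.7 ± 6.07 to 50.2 ± 12.2 CPM (log2 fold change 1.42, adjusted p 0.00654 with edgeR). The lipid transporter gene Abca12 (log2 fold change 1.05, adjusted p 0.0247 with edgeR) was lost in the same 4 fits, and Cyp4f39 (1.95, adjusted p 0.0475 with edgeR) was lost without any library but control 3, with adjusted p-values up to 0.125 and 0.174.

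Of 7 listed keratins, of the differentiating layers or, for Krt79, of the hair follicle infundibulum, 4 rose and 3 did not pass. Beside Krt10 these were Krt79 (7.55 ± 1.74 to 55.7 ± 5.47 CPM, log2 fold change 2.88), Krt2 (log2 fold change 5.84, adjusted p 0.00439 with edgeR) and Krt80 (0.81, adjusted p 0.0198 with edgeR). Krt80 was lost without control 2 or without any Eed cKO library (adjusted p up to 0.0783 with edgeR). Control counts of Krt2 lay in control 1 alone, so no control count is left without that library, and DESeq2 did not call Krt2 (adjusted p 0.0524). Of 33 tested regulators of the complex, 2 rose, 1 fell and 30 did not pass. Both that rose were Grainyhead-like factors of barrier formation: Grhl1 from 36.1 ± 5.41 to 82.5 ± 11.3 CPM (log2 fold change 1.19, adjusted p 0.00233 with edgeR) and Grhl3 from 45.7 ± 17.1 to 102 ± 14.2 CPM (1.16, adjusted p 0.0187 with edgeR). Grhl3 was lost without Eed cKO 1 or Eed cKO 3 (adjusted p up to 0.0674 with edgeR). The POU factor gene Pou2f3 fell from 583 ± 51.6 to 364 ± 75.4 CPM (log2 fold change -0.68, adjusted p 0.0453 with edgeR), a call lost with upper-quartile scaling and without any library but Eed cKO 1 (adjusted p up to 0.188 with edgeR).

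Markers of other cell types and of the basal layer were counted in the same fit. Of 11 basal keratinocyte markers none was called by edgeR, DESeq2 or limma-voom, with 1 lower at an unadjusted p under 0.05, and their sum was 44025 to 48828 CPM in control and 37613 to 47185 CPM in Eed cKO. No marker was called by the same 3 methods among 7 fibroblast (386 to 579 and 566 to 651 CPM), 6 melanocyte (9.26 to 27.3 and 12.6 to 22.6 CPM) and 4 endothelial markers tested (4.92 to 33.9 and 5.94 to 32.4 CPM). At an unadjusted p under 0.05 there were 2, 2 and 0 of these. Of 5 tested myeloid and T cell markers, Cx3cr1 fell and 4 did not pass. The Cx3cr1 call was lost without any library but Eed cKO 2 (adjusted p up to 0.0988 with edgeR). DESeq2 called 2 of these markers lower and limma-voom 1, 2 were lower at an unadjusted p under 0.05, and 0 of the 5 had a positive log2 fold change. List sums were 107 to 384 CPM in control and 47.1 to 281 CPM in Eed cKO. Of 11 hair follicle markers, a list that holds Tchh, 1 fell (Krt71) and 10 did not pass (885 to 1274 and 981 to 1135 CPM). DESeq2 called 3 of this list lower and 1 higher, limma-voom 0 lower and 1 higher, and at an unadjusted p under 0.05 there were 4 lower and 2 higher. Of 4 tested Merkel cell markers, Sox2 and Isl1 rose, and the list sum was 0.195 to 1.82 CPM in control and 7.75 to 14.1 CPM in Eed cKO. The globin genes Hba-a1, Hba-a2 and Hbb-bs had no count, and of the erythroid list only Alas2 was tested, without a call by the 3 methods or an unadjusted p under 0.05 (8.47 to 14.3 and 7.98 to 10.4 CPM). Of the sort genes, Epcam rose while Ly6a and Itga6 did not pass (1080 to 1262 and 1314 to 1476 CPM in sum). Epcam kept its call when control 2 or Eed cKO 1 was left out and lost it in the other 4 such fits (adjusted p up to 0.171 with edgeR). The part of these cells in the values of the envelope genes was not tested.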

How the data were processed

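Per the labels, RNA of sorted epidermal cells was amplified and sequenced as single reads of 100 bases. The files the authors deposited hold whole, unnormalised counts by gene symbol. Build mm10 and 4 tools stand in the submitters' processing notes without their roles: HTSeq 0.6.1, TopHat2 2.0.13, DESeq2 1.6.3 and Cufflinks 2.2.1. Annotation and strand setting: not given in the sources used here.

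Counts were tested in R 4.3.3 with edgeR 4.0.16 (filterByExpr, TMM, quasi-likelihood F-test on genotype, Benjamini-Hochberg adjustment over 14700 genes, threshold 0.05). DESeq2 1.42.0 and limma-voom (limma 3.58.1) were alternatives, with other scalings and filters, a replicate block, summed paralogs and each library left out in turn. CPM values are TMM-normalised, with SD over 3 libraries. Per-length levels use the longest coding transcript of GENCODE M21 (GRCm38). Unique windows were counted over its transcripts on both strands. Promoters are from RefSeq. The fit was tested on simulated data.

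Members and lists were chosen with earlier results of these data known. Members were named where called or at 5 CPM or more in a group, with up to 3 genes of each list by p-value, and Eed, Krt1, Krt10, Krt5 and Krt14.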

Additional observations from a re-analysis of the deposited data

How the results depend on the processing

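Both calls, Sprr1a and Hrnr, held in every alternative run, and no member was called lower in any. The number of members called higher was 2 with all libraries and 2 to 3 when 1 library was left out. It was 5 without a filter on low counts and 5 in DESeq2, where Lor, Rptn and Sprr1b joined. Replicate numbers are shared between the groups but are not stated to pair animals, so they were not taken to do so. Same-numbered libraries had correlations of deviations of 0.29, 0.11 and 0.02. Libraries numbered 1 correlated with other numbers at -0.21 to -0.12, while numbers 2 and 3 correlated with each other at 0.11 and 0.12. Whether libraries of the same number share a batch was not tested. Not every library correlated best with its own number. With the replicate block 4 members were called higher (Lor and Rptn joined), 269 genes were called lower in all, and 4 genes of the context lists fell. Krt1, Dsc1, Klk7 and Pglyrp4, not called without the block, passed with it (adjusted p 0.00488, 0.00194, 0.0219 and 0.0234 with edgeR). The median log2 fold change of the tested members, 0.92, ran from 0.61 to 1.28 when 1 library was left out, and was 1.25 with the Sprr2, Lce1 and Lce3 counts summed, which leaves 12 units. Summed Lce1 counts gave 0.69 on the log2 scale (adjusted p 0.390 with edgeR).

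All genes called higher numbered 499, with 302 to 456 when 1 library was left out and 811 in DESeq2. Those called lower numbered 120, with 35 to 118 when 1 library was left out, 257 without a filter and 273 in DESeq2. Of the context list genes 13 rose, or 8 to 14 when 1 library was left out. Those that fell numbered 2, or 1 to 2 when 1 was left out, 1 with upper-quartile scaling and 5 without a filter. Signs near 0 turned. Tchh went from 0.03 to between -0.18 and 0.57 when 1 library was left out. Lce1m went from -0.26 to 0.43 in limma-voom and 0.43 with the replicate block, and to between -0.80 and 0.96 when 1 library was left out. Sprr2a3 went from 0.04 to -0.093 in limma-voom and -0.060 with the replicate block, and to between -0.33 and 0.36 when 1 was left out. Krt5 went from -0.0055 to 0.0013 with RLE scaling, 0.011 with upper-quartile scaling, 0.0017 with the filter of 1 CPM in 3 libraries and 0.00040 in DESeq2, and to between -0.10 and 0.12 when 1 library was left out, and Krt14 to between -0.27 and 0.034. The cause of these shifts was not tested. Members under about 1 CPM had standard errors near or above 0.8 on the log2 scale, so moderate changes in them were not detectable at this depth.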
